A study of Mus musculus with 24 samples.

Results

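The genes described here are the Wnt ligands, their Frizzled, LRP and ROR receptors, the secreted antagonists SFRP, DKK, WIF1 and NOTUM, the R-spondins with their LGR receptors and the ubiquitin ligases ZNRF3 and RNF43, the axins and the TCF/LEF transcription factors, as expressed in mouse fibroblasts carrying TAZ, YAP or their fusion proteins. They were chosen by symbol alone: 58 symbols matched, and 33 of these had a mean of at least 5 reads over the 24 libraries, against 14361 of 39017 annotated identifiers overall. The 33 comprise 7 of 19 ligands, 12 of 14 receptors and co-receptors, 4 of 10 secreted antagonists, 4 of 9 genes of the R-spondin axis and all 6 axin and TCF/LEF genes.

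NIH 3T3 cells, an immortalised mouse embryonic fibroblast line, were transduced with pBabeNeo retrovirus and kept as pooled lines under G418 so that each group is a pool of transduced cells and not a single clone, with the introduced protein expressed from the vector. The confluent groups, held for 48 h before polyA RNA was taken, carried the empty vector (EV), TAZ4SA or YAP5SA (full-length TAZ or YAP with regulatory serines changed to alanine), TAZ-CAMTA1 or YAP-TFE3 (the gene fusions of epithelioid hemangioendothelioma, each joining the N terminus of TAZ or YAP to the C terminus of CAMTA1 or TFE3), or full-length TFE3. Cells with full-length CAMTA1 were collected at sub-confluence and are set against a sub-confluent empty vector (EVsub). All 8 groups had 3 libraries. TAZ4SA and YAP5SA are together called the full-length proteins, and TAZ-CAMTA1 and YAP-TFE3 the fusions.

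Wnt ligands are secreted lipid-modified proteins that bind a Frizzled receptor with LRP5 or LRP6, which restrains the complex of AXIN, APC and GSK3, lets β-catenin accumulate and activates genes through TCF/LEF factors. SFRP and WIF1 proteins bind the ligand, most DKK proteins, though not the divergent DKK3, act on LRP5 and LRP6, and NOTUM removes the lipid. ZNRF3 and RNF43 clear Frizzled from the surface, and R-spondin bound to an LGR receptor holds them back. AXIN2, LEF1, TCF7, ZNRF3, RNF43, NOTUM and LGR5 are widely used readouts, since β-catenin drives them in many tissues. In fibroblasts ROR1 and ROR2 carry WNT5A signals that bypass β-catenin, and the Hippo effectors YAP and TAZ act on DNA through TEAD factors and share components with the Wnt cascade.

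Promoters are shown for 4 members whose levels the results turn on. Lgr4 and Fzd4 were called in opposite directions under a fusion protein and its full-length counterpart, and Wnt7a and Wnt11 passed from near 0 reads to clear expression. The RefSeq table of promoters (GRCm38.p6, 250 bases before to 50 bases after a transcription start) held 28 promoters of 21 of the 33 members. Each sequence below is the 250 bases before the start, read 5′ to 3′ on the gene's strand. Capitals mark the letters GGAATG of the TEAD motif or CTTTGAT of the TCF/LEF motif, searched on both strands, so that a match on the other strand reads CATTCC or ATCAAAG.
Lgr4, chr2:109917397-109917646, plus strand: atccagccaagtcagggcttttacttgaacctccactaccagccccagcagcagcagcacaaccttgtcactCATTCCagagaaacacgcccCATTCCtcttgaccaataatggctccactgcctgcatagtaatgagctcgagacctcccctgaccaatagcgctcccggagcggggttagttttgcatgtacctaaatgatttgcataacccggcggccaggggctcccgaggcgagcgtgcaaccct
Fzd4, chr7:89404116-89404365, plus strand: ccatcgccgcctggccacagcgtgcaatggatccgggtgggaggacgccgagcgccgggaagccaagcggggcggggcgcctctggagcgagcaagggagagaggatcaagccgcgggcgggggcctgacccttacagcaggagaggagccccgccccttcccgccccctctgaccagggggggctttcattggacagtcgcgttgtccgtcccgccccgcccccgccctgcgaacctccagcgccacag
Wnt7a, chr6:91411354-91411603, minus strand: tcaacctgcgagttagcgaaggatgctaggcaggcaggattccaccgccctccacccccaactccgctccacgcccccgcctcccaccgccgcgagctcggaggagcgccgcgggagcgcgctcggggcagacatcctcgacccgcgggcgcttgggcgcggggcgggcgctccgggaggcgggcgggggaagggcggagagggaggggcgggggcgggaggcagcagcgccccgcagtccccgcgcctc
Wnt11, chr7:98834862-98835111, plus strand: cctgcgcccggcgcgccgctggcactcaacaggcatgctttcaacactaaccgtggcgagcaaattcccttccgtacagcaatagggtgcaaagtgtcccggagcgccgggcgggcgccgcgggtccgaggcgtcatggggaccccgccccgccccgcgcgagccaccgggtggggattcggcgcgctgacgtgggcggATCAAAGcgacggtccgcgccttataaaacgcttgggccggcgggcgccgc
The TEAD letters occurred in 1 of the 28 member promoters, that of Lgr4, where they begin 178 and 158 bases before the start on the minus strand. Of all 32851 promoters listed, 14.7% held them. The TCF/LEF letters occurred in 1 member promoter, the upstream one of the 2 listed for Wnt11, 51 bases before the start and on the minus strand, against 3.73% of all promoters. The 2 motifs do not overlap in these windows, and absence of the letters says only that they are not in this window.

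The 24 libraries held 16471181 to 30132586 counted reads. Replicates of a group always differed by more than sampling noise (chi-square over its degrees of freedom at least 5.49), so each library counted as 1 replicate. Fibroblast markers were found in every library (lowest count 14, for Lum), Epcam had 0 reads in all 24, and the blood marker Ptprc had 0 to 4. Some markers differed in level between groups. Mean CPM (reads scaled to a common library size by TMM) of Cd68 was 3.17 in EV, 40.6 in TAZ4SA and 66.9 in YAP5SA, that of Csf1r 0.636, 5.41 and 39.99, and that of the endothelial Kdr 0.075, 9.63 and 6.42, while Tek, also endothelial, went the other way at 3.05, 0.208 and 0.602. Of the 10 fibroblast markers, the means of 6 were lower in YAP5SA than in EV (Col3a1, Pdgfra, Pdgfrb, Fn1, Dcn and Lum, with Dcn at 54.1 against 2433 CPM) and those of 4 were higher (Col1a1, Col1a2, Thy1 and Vim, with Vim at 8076 against 3532). Their sum ran from 36950 to 40940 CPM in the EV libraries, 20720 to 26670 in TAZ4SA and 28180 to 33290 in YAP5SA. The 3 blood markers together came to 3.06 to 4.38 CPM in the EV libraries, 15.7 to 64.9 in TAZ4SA, 82.6 to 131 in YAP5SA and at most 6.66 elsewhere, and the 4 endothelial markers to 2.34 to 4.51 in EV, 8.49 to 12.1 in TAZ4SA, 7.46 to 8.21 in YAP5SA and at most 4.94 elsewhere. The 4 neural markers came to 4.48 to 9.48 CPM in CAMTA1, where Tubb3 averaged 5.48, and to 1.37 to 1.73 in EVsub, where it averaged 0.814, with at most 3.21 in the other groups. The 5 epithelial markers summed to at most 1.15 CPM in any library. Their part in the results below was not tested. Of the 33 members 14 overlap a gene on the other strand, among them Axin2, Lef1, Tcf7, Wnt7b, Wnt11, Sfrp2 and Rnf43, and the strand setting of the counting is not given, so reads of such partners cannot be told apart.

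Calls among the Wnt genes were most numerous under the full-length proteins, as were those among all genes tested. With TAZ4SA, 23 of 33 members were called against EV (edgeR, adjusted p under 0.05), 10 higher and 13 lower, where 57.5% of all genes tested were called, 31.1% higher and 26.4% lower. With YAP5SA, 28 were called, 10 higher and 18 lower, against 71.2%, 36.3% and 34.9% of all genes. The median log2 difference of the members was -0.14 with TAZ4SA and -0.78 with YAP5SA, beside 0.05 and 0.01 over all genes tested. Shares of members called higher stood near or under the background in both, while 39.4% and 54.5% of the members were lower. In bulk RNA, fewer cells of a type and less RNA per cell cannot be told apart.

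The fusions changed fewer members, most of them higher. TAZ-CAMTA1 gave 9 calls, 8 higher and 1 lower, beside a background of 21.5%, 12.5% and 8.98%. YAP-TFE3 gave 12 calls, 8 higher and 4 lower, beside 15.3%, 10.6% and 4.74%. Their medians were 0.17 and 0.25, with -0.00 and 0.00 over all genes. Full-length TFE3 gave 3 calls, 1 higher and 2 lower (background 3.38%, 2.36% and 1.02%), and CAMTA1 against EVsub gave 2, 1 in each direction (background 2.18%, 1.29% and 0.891%). Sub-confluence itself, EVsub against EV, gave 7 calls, 1 higher and 6 lower, beside 22.1%, 12.5% and 9.59%. All comparisons other than that of CAMTA1 share the EV libraries, and that of CAMTA1 shares the EVsub libraries with EVsub against EV. The counts are therefore not independent of one another. Over these 7 comparisons 32 of the 33 members were called at least once, the exception being Wnt2b. The same share over all genes was not computed, and YAP5SA alone called 71.2% of them, so this count does not set the members apart. Of the 33 members 17 had group means spanning at least 4-fold, a range that 26.3% of all genes tested reached.

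**Figure D1:**
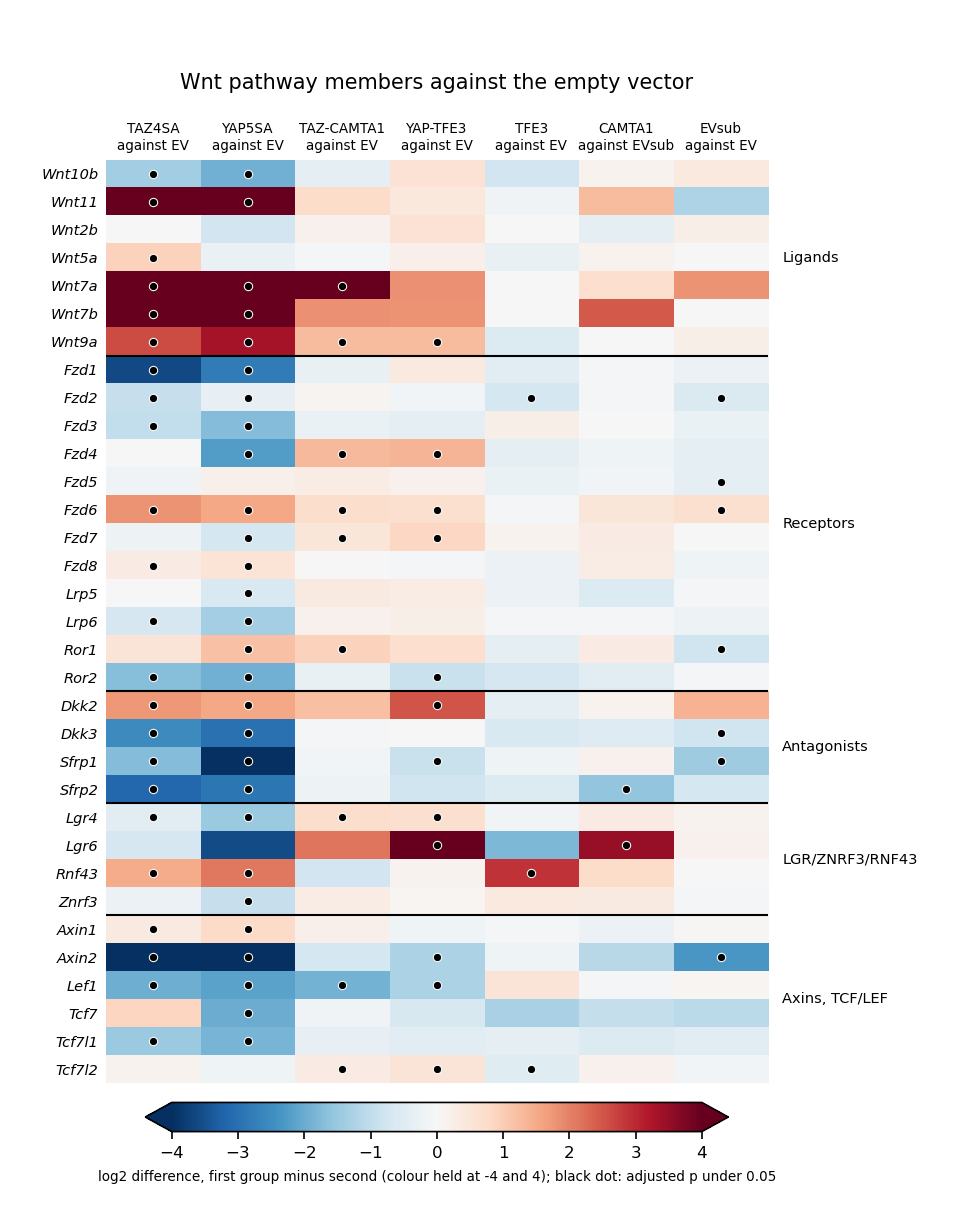
Log2 differences of the 33 members (rows, grouped by role) in the 7 comparisons with an empty vector (columns). Red is higher and blue lower in the first group, the colour is held at -4 and 4, a black dot marks an adjusted p under 0.05, and values against a group with 0 to 3 reads depend on the fit. The TAZ4SA and YAP5SA columns hold 23 and 28 dots, and those of TAZ-CAMTA1 and YAP-TFE3 hold 9 and 12.

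Among the ligands, Wnt9a rose with all 4 TAZ and YAP proteins, and Wnt7a, Wnt7b and Wnt11 were close to absent in EV and rose with TAZ4SA and YAP5SA. Wnt7a, Wnt7b and Wnt11 passed the mean limit of 5 reads only through these groups, so their rise is partly built into their membership. In EV the 2 ligands with the highest levels per length were Wnt9a, at 2.39 RPKM (CPM per kilobase of merged exon), and Wnt5a, at 1.83 RPKM. The other 5 stood at 0.284 RPKM (Wnt10b) or lower.

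Wnt9a (ENSMUSG00000000126, chr11:59306928-59333552, plus strand), a ligand with roles in joint and skeletal development, was measured at 8.95, 8.88 and 6.02 CPM in the 3 EV libraries, 42.5, 58.01 and 44.7 in TAZ4SA and 90.97, 78.2 and 71.9 in YAP5SA. It stood at 19.6, 16.8 and 20.4 CPM in TAZ-CAMTA1, 23.02, 16.6 and 17.5 in YAP-TFE3, 5.14, 5.99 and 5.06 in TFE3, 8.75, 7.91 and 11.4 in EVsub and 12.5, 6.90 and 8.13 in CAMTA1. Every library of the 4 TAZ and YAP groups lay above every other library. The log2 difference from EV was 2.60 ± 0.21, adjusted p = 1.5e-09 for TAZ4SA and 3.34 ± 0.21, adjusted p = 1.66e-11 for YAP5SA (± SE, edgeR). For TAZ-CAMTA1 it was 1.25 ± 0.20, adjusted p = 0.000108 and for YAP-TFE3 1.26 ± 0.20, adjusted p = 0.000144. Tested against one another, no difference between the fusions was called (0.00 ± 0.20, adjusted p = 0.995), each was lower than its full-length protein (-1.35 and -2.08), and TAZ4SA was lower than YAP5SA (-0.73 ± 0.19, adjusted p = 0.00407).

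Wnt7a (ENSMUSG00000030093, chr6:91363981-91411363, minus strand), which signals in limb, skin and nervous system development, had 0 reads in all EV and TFE3 libraries, with 1, 0 and 0 in EVsub and 2, 0 and 0 in CAMTA1. Counts were 36, 39 and 42 in TAZ4SA, 386, 254 and 252 in YAP5SA, 8, 5 and 9 in TAZ-CAMTA1 and 0, 0 and 1 in YAP-TFE3. The gene thus passed from undetected to well expressed in YAP5SA, at 16.1 ± 3.68 CPM (SD, n = 3), with much lower levels in TAZ4SA and a handful of reads in TAZ-CAMTA1. Set against a floor of 3 reads per EV library, it was at least 120-fold higher in YAP5SA (adjusted p = 4.14e-11), at least 16.3-fold in TAZ4SA (7.59e-08) and at least 2.27-fold in TAZ-CAMTA1 (0.0013). The excess of TAZ-CAMTA1 over YAP-TFE3, 22.6-fold with a 95% counting interval of 3.66 to 935, was called directly (adjusted p = 0.00599).

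Wnt7b (ENSMUSG00000022382, chr15:85535437-85582473, minus strand), its close relative, had 0 reads in every EV, EVsub and TFE3 library. Counts were 21, 18 and 69 in TAZ4SA, 434, 284 and 178 in YAP5SA, 0, 0 and 1 in TAZ-CAMTA1, 0, 1 and 0 in YAP-TFE3 and 0, 0 and 2 in CAMTA1. The full-length proteins stood apart from all other groups, and no rise was called with either fusion. The gene was at least 118-fold higher than EV in YAP5SA (adjusted p = 2.8e-09) and at least 13.5-fold in TAZ4SA (4.11e-06). TAZ4SA was lower than YAP5SA for Wnt7a (-2.90 ± 0.31, adjusted p = 1.7e-06) and for Wnt7b (-3.09 ± 0.39, adjusted p = 1.8e-05).

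Wnt11 (ENSMUSG00000015957, chr7:98835112-98855195, plus strand), a ligand of the planar polarity arm, had 4, 2 and 3 reads in EV against 60, 61 and 64 in TAZ4SA and 59, 48 and 38 in YAP5SA. TAZ-CAMTA1 gave 6, 8 and 2, YAP-TFE3 6, 4 and 3, TFE3 4, 2 and 3, EVsub 0, 1 and 3 and CAMTA1 1, 6 and 4. No library outside the TAZ4SA and YAP5SA groups passed 8 reads. The log2 differences from EV were 4.62 ± 0.48, adjusted p = 6.39e-08 and 4.23 ± 0.49, adjusted p = 1.02e-07, and the 2 full-length proteins were not told apart (0.39 ± 0.34, adjusted p = 0.369). Both fusions were lower than their full-length proteins, at -3.88 and -3.82.

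Wnt10b (ENSMUSG00000022996, chr15:98770712-98778150, minus strand), which restrains fat cell formation, went the other way. It measured 1.05, 1.00 and 0.841 CPM in EV, 0.447, 0.225 and 0.396 in TAZ4SA, 0.257, 0.343 and 0.127 in YAP5SA, 0.930, 0.512 and 0.798 in TAZ-CAMTA1 and 1.10, 1.94 and 1.19 in YAP-TFE3. In TFE3 it measured 0.402, 0.591 and 0.697, in EVsub 1.00, 0.890 and 1.90 and in CAMTA1 0.974, 1.62 and 1.61. All TAZ4SA and YAP5SA libraries lay below all EV libraries, with differences of -1.38 ± 0.41, adjusted p = 0.00675 and -1.93 ± 0.44, adjusted p = 0.000509, while YAP-TFE3 was higher than YAP5SA (2.49 ± 0.42, adjusted p = 1.81e-05). Wnt5a, the main ligand of the ROR receptors, rose with TAZ4SA, from 14.3 ± 0.781 to 27.4 ± 4.84 CPM (0.93 ± 0.13, adjusted p = 4.7e-06). Its group means stood between 11.6 and 16.6 CPM elsewhere. Wnt2b, at 0.457 to 1.21 CPM, was called in no comparison with an empty vector.

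The other 12 ligand symbols stayed under the limit. Wnt2 and Wnt4 reached 10 and 12 reads in a library, Wnt5b and Wnt8a 5, Wnt6 and Wnt8b 4, Wnt16 2, and Wnt1, Wnt3, Wnt3a, Wnt9b and Wnt10a 1.

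**Figure D2:**
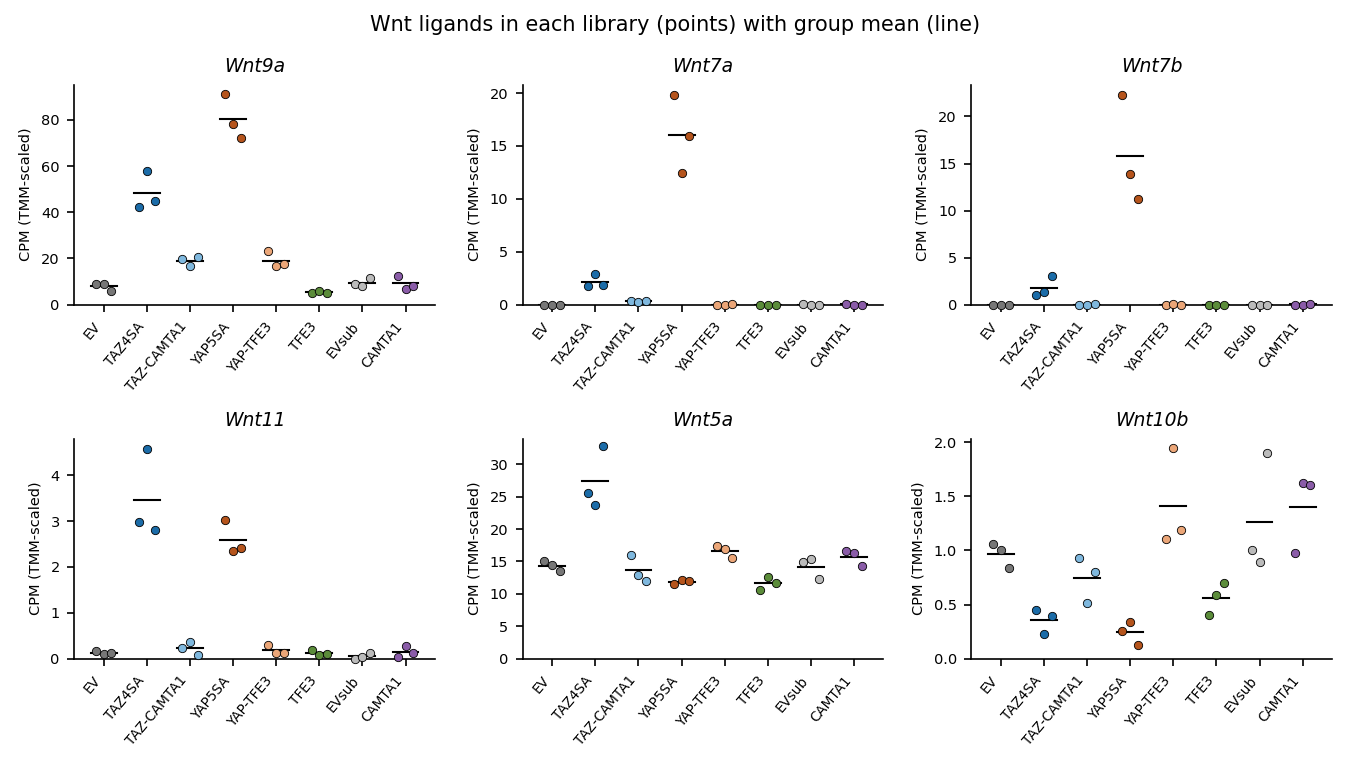
CPM (TMM-scaled) of 6 Wnt ligands in every library (points, 3 per group) with the group mean (line) for the 8 groups. Wnt9a stands at 16.6 to 91.0 CPM in the libraries of the 4 TAZ and YAP proteins and at most 12.5 elsewhere, while Wnt7a, Wnt7b and Wnt11 leave the baseline in TAZ4SA and YAP5SA.

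Of the 12 receptors, 5 were lower and 2 higher with TAZ4SA, beside 26.4% and 31.1% of all genes, and 8 lower and 3 higher with YAP5SA, beside 34.9% and 36.3%. TAZ-CAMTA1 gave 4 higher and 0 lower, beside 12.5% and 8.98%, and YAP-TFE3 3 higher and 1 lower, beside 10.6% and 4.74%. Per length, Fzd2, Fzd1 and Lrp6 led the receptors of EV cells at 48.5, 31.1 and 18.02 RPKM, and Fzd3 stood lowest at 0.469.

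Fzd1 (ENSMUSG00000044674, chr5:4753839-4758035, minus strand), a receptor for the β-catenin arm, measured 114, 142 and 135 CPM in EV, 10.1, 9.74 and 11.96 in TAZ4SA and 20.02, 16.8 and 20.1 in YAP5SA. The other groups lay far above these, at 125, 89.7 and 101 CPM in TAZ-CAMTA1, 201, 160.5 and 151 in YAP-TFE3, 98.6, 98.6 and 87.7 in TFE3, 90.8, 124 and 115 in EVsub and 73.6, 113 and 131 in CAMTA1. Every library with a full-length protein was at or under 20.1 CPM and every other library at or above 73.6. The gene fell with TAZ4SA (-3.61 ± 0.20, adjusted p = 6.97e-12) and YAP5SA (-2.78 ± 0.19, adjusted p = 3.09e-11), further with TAZ4SA (-0.83 ± 0.19, adjusted p = 0.00135). Neither fusion was called against EV (-0.31 ± 0.17, adjusted p = 0.212 for TAZ-CAMTA1 and 0.39 ± 0.17, adjusted p = 0.136 for YAP-TFE3), yet TAZ-CAMTA1 was lower than YAP-TFE3 (-0.70 ± 0.17, adjusted p = 0.00951), a call lost without TAZ-CAMTA1 replicate 2 (-0.59, adjusted p = 0.0742) or YAP-TFE3 replicate 1 (-0.57, adjusted p = 0.0697).

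Fzd4 (ENSMUSG00000049791, chr7:89404355-89413134, plus strand), receptor for Norrin as well as Wnts, split the fusions from the full-length proteins. Its values were 11.02, 14.6 and 10.8 CPM in EV, 34.8, 29.2 and 25.6 in TAZ-CAMTA1, 40.02, 23.6 and 28.9 in YAP-TFE3, 13.2, 12.5 and 11.1 in TAZ4SA and 2.57, 3.24 and 1.84 in YAP5SA. TFE3 gave 10.3, 9.20 and 8.75, EVsub 6.06, 6.45 and 14.96 and CAMTA1 5.70, 8.99 and 9.52 CPM. The 6 fusion libraries held the highest values of all 24 and the 3 of YAP5SA the lowest. Fzd4 rose with TAZ-CAMTA1 (1.30 ± 0.27, adjusted p = 0.00128) and YAP-TFE3 (1.34 ± 0.27, adjusted p = 0.00119) and fell with YAP5SA (-2.23 ± 0.31, adjusted p = 1.38e-06), with no call for TAZ4SA (0.02 ± 0.28, adjusted p = 0.957). Directly, YAP-TFE3 exceeded YAP5SA by 3.58 ± 0.31, adjusted p = 1.95e-09 and TAZ-CAMTA1 exceeded TAZ4SA by 1.28 ± 0.27, adjusted p = 0.000462.

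The other 10 receptor genes had calls of both directions. Fzd7 rose with TAZ-CAMTA1 and YAP-TFE3 (0.48 and 0.81) and fell with YAP5SA (-0.70). Fzd6 rose in 5 comparisons, by 1.81 with TAZ4SA, 1.55 with YAP5SA, 0.69 with TAZ-CAMTA1, 0.63 with YAP-TFE3 and 0.65 in EVsub. Its call with YAP-TFE3 was lost without EV replicate 1 (0.45, adjusted p = 0.171), YAP-TFE3 replicate 1 (0.57, adjusted p = 0.129) or YAP-TFE3 replicate 2 (0.54, adjusted p = 0.109), and with TAZ-CAMTA1 without EV replicate 1 (0.52, adjusted p = 0.0865) or TAZ-CAMTA1 replicate 3 (0.62, adjusted p = 0.0538). Fzd3 fell by 0.98 and 1.75 with TAZ4SA and YAP5SA, and Fzd2 by 0.91 and 0.32, the latter call lost without EV replicate 3 (-0.24, adjusted p = 0.151), YAP5SA replicate 2 (-0.25, adjusted p = 0.14) or YAP5SA replicate 3 (-0.33, adjusted p = 0.0658). Fzd2 was also lower with TFE3 (-0.70 ± 0.13, adjusted p = 0.00365) and in EVsub (-0.59 ± 0.13, adjusted p = 0.00294). Fzd8 rose with YAP5SA (0.56 ± 0.14, adjusted p = 0.000988) and, at 0.33 ± 0.14, adjusted p = 0.0477, with TAZ4SA, a call lost on leaving out any 1 of 15 libraries (adjusted p = 0.0509 to 0.163). Fzd5 was called in EVsub alone of the 7 comparisons (-0.40 ± 0.14, adjusted p = 0.0418), a call lost on leaving out any 1 of 6 libraries (adjusted p = 0.0511 to 0.196).

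Of the co-receptors, Lrp6, the partner of Frizzled, fell by 0.67 with TAZ4SA and 1.37 with YAP5SA, from 246 ± 12.3 CPM in EV to 154 ± 28.1 and 95.5 ± 13.4, and Lrp5 fell by 0.61 with YAP5SA. Ror2 fell with TAZ4SA (-1.69), YAP5SA (-1.92) and YAP-TFE3 (-0.88). Ror1 rose with YAP5SA (1.18 ± 0.27, adjusted p = 0.000567) and TAZ-CAMTA1 (0.92 ± 0.27, adjusted p = 0.0176), the latter call lost without EV replicate 2 (0.66, adjusted p = 0.0879) or TAZ-CAMTA1 replicate 3 (0.87, adjusted p = 0.061). In EVsub Ror1 was called lower (-0.80 ± 0.29, adjusted p = 0.0488), a call lost on leaving out any 1 of 18 libraries (adjusted p = 0.0509 to 0.217). Fzd10 had 0 reads in all libraries and Fzd9 at most 1.

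**Figure D3:**
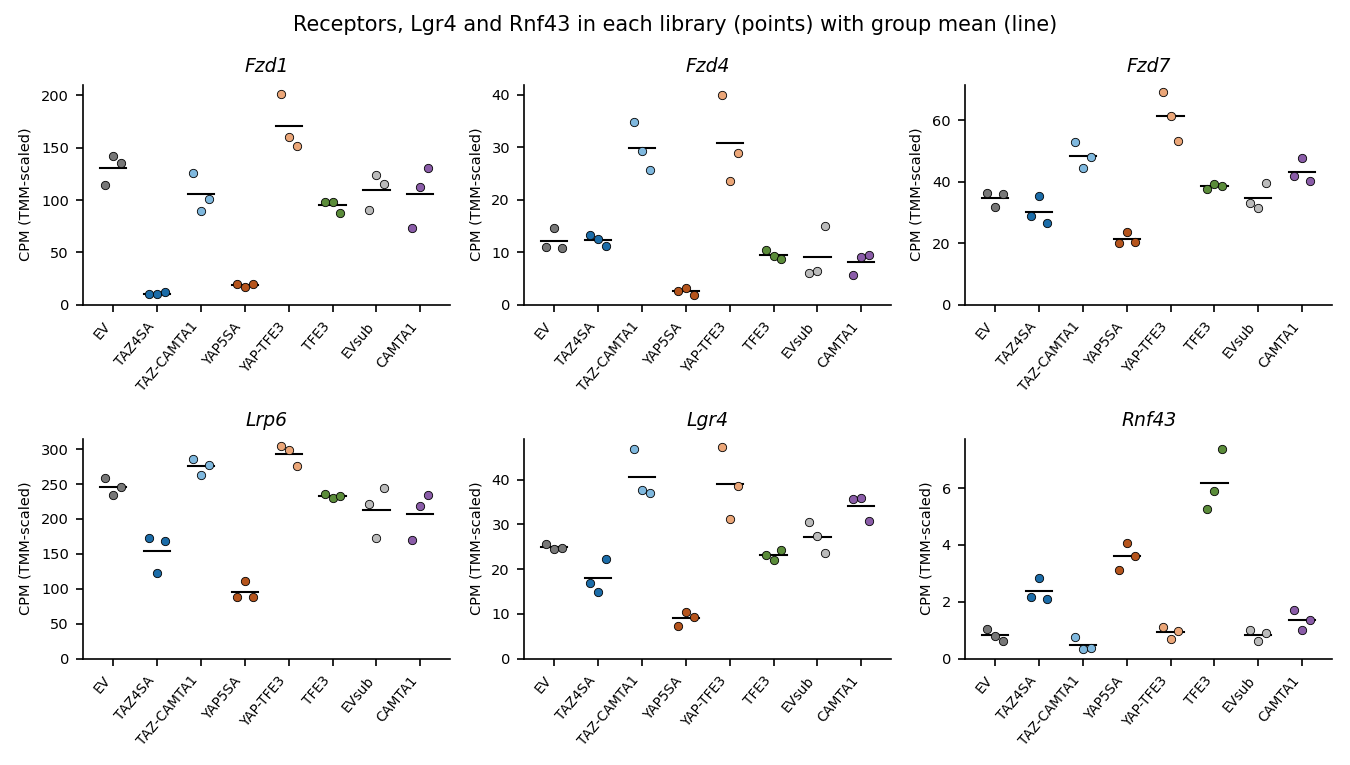
CPM (TMM-scaled) of 4 receptor genes, Lgr4 and Rnf43 in every library (points, 3 per group) with the group mean (line). Fzd1 drops to at most 20.1 CPM in TAZ4SA and YAP5SA, Fzd4, Fzd7 and Lgr4 stand highest on average in the fusion groups and lowest in YAP5SA, and Rnf43 peaks in TFE3.

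Of the 4 secreted antagonists, 3 fell steeply with the full-length proteins while Dkk2 rose. Of all genes, 26.4% fell and 31.1% rose with TAZ4SA, and 34.9% fell and 36.3% rose with YAP5SA. Sfrp1 (ENSMUSG00000031548, chr8:23411502-23449632, plus strand), which binds Wnts outside the cell, measured 20.6, 40.01 and 21.9 CPM in EV, 6.15, 10.7 and 8.18 in TAZ4SA, 0.462, 1.13 and 0.443 in YAP5SA, 27.2, 26.4 and 22.2 in TAZ-CAMTA1 and 15.1, 13.1 and 16.7 in YAP-TFE3. TFE3 gave 23.8, 24.2 and 24.6, EVsub 6.88, 9.65 and 13.9 and CAMTA1 11.6, 9.80 and 12.6 CPM. YAP5SA libraries lay far under every other library. The fall was -5.29 ± 0.35, adjusted p = 2.71e-11 with YAP5SA and -1.73 ± 0.26, adjusted p = 9.63e-06 with TAZ4SA, and TAZ4SA stood above YAP5SA (3.56 ± 0.36, adjusted p = 2.96e-07). Sfrp1 was also lower in EVsub (-1.44 ± 0.26, adjusted p = 0.000413) and with YAP-TFE3 (-0.88 ± 0.25, adjusted p = 0.0192), the latter lost without EV replicate 2 (-0.51, adjusted p = 0.179), YAP-TFE3 replicate 1 (-0.91, adjusted p = 0.0645) or YAP-TFE3 replicate 2 (-0.79, adjusted p = 0.0828).

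Sfrp2 (ENSMUSG00000027996, chr3:83766321-83774316, plus strand), a relative of Sfrp1, measured 27.7, 17.2 and 30.1 CPM in EV, 2.43, 3.37 and 2.81 in TAZ4SA and 2.00, 4.56 and 3.61 in YAP5SA. Elsewhere it gave 29.5, 20.4 and 15.6 in TAZ-CAMTA1, 13.8, 10.8 and 18.4 in YAP-TFE3, 16.05, 18.8 and 16.6 in TFE3, 8.29, 24.3 and 13.9 in EVsub and 4.04, 6.04 and 5.50 in CAMTA1. No library with a full-length protein passed 4.56 CPM, where the lowest EV library had 17.2, and the CAMTA1 libraries, at 4.04 to 6.04, overlapped the range of YAP5SA. It fell with TAZ4SA (-3.14 ± 0.36, adjusted p = 2.42e-07) and YAP5SA (-2.88 ± 0.35, adjusted p = 2.29e-07). Of CAMTA1 against EVsub it was the 1 member called lower (-1.58 ± 0.33, adjusted p = 0.0125), lost without CAMTA1 replicate 1 (-1.43, adjusted p = 0.08) or EVsub replicate 2 (-1.10, adjusted p = 0.14).

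Dkk3 (ENSMUSG00000030772, chr7:112116017-112159057, minus strand), a divergent member of the DKK family, measured 49.9, 46.4 and 52.03 CPM in EV against 9.28, 7.34 and 8.49 in TAZ4SA and 4.93, 6.43 and 7.41 in YAP5SA. TAZ-CAMTA1 had 57.8, 41.2 and 42.2, YAP-TFE3 43.7, 49.1 and 53.1, TFE3 35.6, 29.9 and 32.7, EVsub 18.7, 33.9 and 33.4 and CAMTA1 11.7, 21.2 and 27.8 CPM. No library with TAZ4SA or YAP5SA passed 9.28 CPM, and no other library was under 11.7. The differences from EV were -2.56 ± 0.25, adjusted p = 2.81e-08 for TAZ4SA, -2.99 ± 0.26, adjusted p = 1.3e-09 for YAP5SA and -0.78 ± 0.23, adjusted p = 0.0178 for EVsub. That of EVsub was lost without EV replicate 3 (-0.75, adjusted p = 0.0605) or EVsub replicate 1 (-0.56, adjusted p = 0.111).

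Dkk2 (ENSMUSG00000028031, chr3:132085292-132180304, plus strand), which binds LRP5 and LRP6, had 1.60, 2.44 and 1.20 CPM in EV, 7.09, 5.40 and 5.01 in TAZ4SA, 3.59, 4.76 and 7.16 in YAP5SA, 4.49, 3.87 and 3.75 in TAZ-CAMTA1 and 6.37, 14.8 and 8.79 in YAP-TFE3. Values were 1.39, 1.35 and 1.36 in TFE3, 5.24, 0.570 and 7.90 in EVsub and 1.48, 5.52 and 7.88 in CAMTA1. EVsub libraries ran from below all EV libraries to above all TAZ4SA libraries, and YAP-TFE3 held the highest single value. Dkk2 rose with YAP-TFE3 (2.53 ± 0.59, adjusted p = 0.00428), TAZ4SA (1.75 ± 0.60, adjusted p = 0.0161) and YAP5SA (1.56 ± 0.60, adjusted p = 0.0247). The TAZ4SA call was lost without EV replicate 3 (1.54, adjusted p = 0.0655) or TAZ4SA replicate 1 (1.58, adjusted p = 0.054), and the YAP5SA call without EV replicate 1 (1.51, adjusted p = 0.0642), EV replicate 3 (1.35, adjusted p = 0.087) or YAP5SA replicate 3 (1.26, adjusted p = 0.0967).

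Dkk1 and Notum, both known β-catenin targets, had 0 reads in all 24 libraries. Sfrp4 reached 4 reads, Sfrp5 and Wif1 2, and Dkk4 1.

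Summed per length, the 7 ligands came to 4.73 ± 0.66 RPKM in EV, 20.2 ± 2.6 in TAZ4SA and 34.8 ± 5.0 in YAP5SA (SD, n = 3). The 4 antagonists came to 33.1 ± 1.6 RPKM in EV, 7.31 ± 0.31 in TAZ4SA and 4.99 ± 1.3 in YAP5SA. Dkk3, the divergent DKK, gave 14.7 RPKM of the antagonist sum in EV. Wnt9a alone gave 2.39 RPKM of the ligand sum in EV, 14.5 in TAZ4SA and 24.1 in YAP5SA. The sums thus lay in opposite order in EV and in the full-length groups, with antagonists above ligands in EV and below them in TAZ4SA and YAP5SA. Both fusions kept antagonists above ligands, at 31.0 and 8.02 RPKM in TAZ-CAMTA1 and 27.3 and 8.60 in YAP-TFE3. So did TFE3 (23.6 and 3.50), EVsub (19.3 and 5.24) and CAMTA1 (12.4 and 5.40), with antagonist sums under that of EV. The 12 receptors summed to 128 ± 6.7 RPKM in EV, 67.6 ± 4.7 in TAZ4SA, 73.4 ± 3.3 in YAP5SA, 137 ± 12 in TAZ-CAMTA1 and 147 ± 12 in YAP-TFE3. The ligand sum includes Wnt7a, Wnt7b and Wnt11, which became members only through their reads in TAZ4SA and YAP5SA. These sums are descriptions and were not tested.

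**Figure D4:**
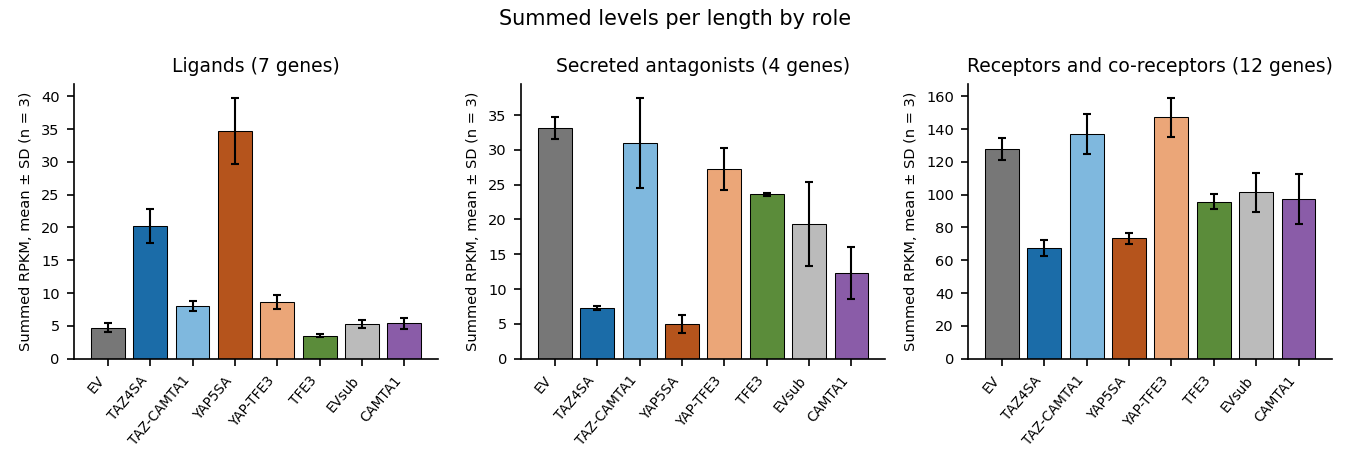
Summed RPKM of the ligands, secreted antagonists and receptors in each group (bars, mean; error bars, SD over 3 libraries). Ligand sums are highest in YAP5SA (34.8) and TAZ4SA (20.2), where antagonist sums are lowest (4.99 and 7.31).

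In the R-spondin axis Lgr4 was higher with the fusions and lower with the full-length proteins. Lgr4 (ENSMUSG00000050199, chr2:109917647-110014257, plus strand), the broadly expressed R-spondin receptor, measured 25.6, 24.5 and 24.8 CPM in EV, 16.9, 14.8 and 22.3 in TAZ4SA, 7.29, 10.4 and 9.38 in YAP5SA, 46.9, 37.8 and 36.9 in TAZ-CAMTA1 and 47.2, 31.3 and 38.6 in YAP-TFE3. TFE3 gave 23.1, 21.99 and 24.3, EVsub 30.6, 27.5 and 23.7 and CAMTA1 35.7, 35.8 and 30.7. All fusion libraries lay above all EV libraries and all full-length libraries below them. It rose with TAZ-CAMTA1 (0.70 ± 0.16, adjusted p = 0.00272) and YAP-TFE3 (0.64 ± 0.16, adjusted p = 0.00668) and fell with YAP5SA (-1.47 ± 0.17, adjusted p = 8.29e-08) and TAZ4SA (-0.47 ± 0.16, adjusted p = 0.017). The YAP-TFE3 call was lost without YAP-TFE3 replicate 1 (0.46, adjusted p = 0.111), and the TAZ4SA call without TAZ4SA replicate 1 (-0.42, adjusted p = 0.0626) or TAZ4SA replicate 2 (-0.35, adjusted p = 0.0903). Each fusion exceeded its full-length protein directly, by 1.16 ± 0.16, adjusted p = 3.91e-06 and 2.11 ± 0.17, adjusted p = 5.34e-10.

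Lgr6 (ENSMUSG00000042793, chr1:134983301-135105276, minus strand), a related R-spondin receptor, was nearly silent in EV with 1, 2 and 1 reads, in TAZ4SA with 1, 1 and 0 and in TFE3 with 0, 0 and 1, and had 0 in all YAP5SA libraries. YAP-TFE3 gave 51, 50 and 27 reads, TAZ-CAMTA1 7, 4 and 9, EVsub 1, 4 and 0 and CAMTA1 47, 12 and 5. Lgr6 passed the mean limit of 5 reads only through YAP-TFE3 and CAMTA1, so its rise there is partly built into its membership. YAP-TFE3 libraries stood apart from all confluent groups, while the CAMTA1 libraries ranged from 5 reads, next to the 4 of an EVsub library, to 47, inside the range of YAP-TFE3. With YAP-TFE3 it was 29.3-fold above EV, with a 95% counting interval of 11.2 to 109 (adjusted p = 0.000254), and it was higher than with TAZ-CAMTA1 (adjusted p = 0.00703). The call in CAMTA1 (3.47 ± 0.83, adjusted p = 0.0288) was lost without CAMTA1 replicate 1 (2.22, adjusted p = 0.273), CAMTA1 replicate 2 (3.64, adjusted p = 0.0612), EVsub replicate 1 (3.30, adjusted p = 0.0503), EVsub replicate 2 (4.88, adjusted p = 0.0824) or EVsub replicate 3 (2.95, adjusted p = 0.0926). TAZ-CAMTA1 was not called against EV, at 4.72-fold with an interval of 1.58 to 19.0 (adjusted p = 0.148).

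Rnf43 (ENSMUSG00000034177, chr11:87662722-87735539, plus strand), a ligase that removes Frizzled from the surface, was the member that rose with full-length TFE3. It measured 1.05, 0.812 and 0.619 CPM in EV, 5.28, 5.91 and 7.39 in TFE3, 2.18, 2.85 and 2.11 in TAZ4SA and 3.13, 4.07 and 3.61 in YAP5SA. TAZ-CAMTA1 gave 0.769, 0.326 and 0.359, YAP-TFE3 1.10, 0.703 and 0.977, EVsub 1.00, 0.605 and 0.888 and CAMTA1 1.70, 0.999 and 1.36 CPM. TFE3 libraries lay above all others, followed by those of the full-length YAP and TAZ. The rise was 2.89 ± 0.28, adjusted p = 2.46e-06 with TFE3, 1.497 ± 0.30, adjusted p = 0.000191 with TAZ4SA and 2.11 ± 0.29, adjusted p = 1.09e-06 with YAP5SA. YAP-TFE3, which keeps the C terminus of TFE3, was not called (0.14 ± 0.32, adjusted p = 0.837), and its difference from TFE3 was not tested.

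Znrf3 (ENSMUSG00000041961, chr11:5276324-5444847, minus strand), the paralogous ligase, measured 11.1, 15.7 and 13.1 CPM in EV, 11.2, 9.97 and 12.3 in TAZ4SA, 6.47, 7.02 and 7.67 in YAP5SA, 16.2, 15.8 and 16.4 in TAZ-CAMTA1 and 14.3, 13.4 and 13.9 in YAP-TFE3. TFE3 gave 16.6, 18.2 and 16.8, EVsub 13.3, 13.1 and 11.7 and CAMTA1 16.8, 16.9 and 15.00 CPM. It fell with YAP5SA (-0.92 ± 0.13, adjusted p = 1.35e-06), whose libraries were the lowest of all, and was called in none of the other 6 comparisons with an empty vector. Among the R-spondins, Rspo2 reached 16 reads in a library (mean 4.54), Rspo1 6, and Rspo3 and Rspo4 2. Lgr5 reached 2.

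Downstream of the receptors, the feedback gene Axin2 and the factor Lef1 fell with both full-length proteins. The other readouts over the count limit differed from these. Rnf43 rose with both, and Tcf7 and Znrf3 fell with YAP5SA and were not called with TAZ4SA. Axin2 (ENSMUSG00000000142, chr11:108920349-108950783, plus strand), a scaffold of the β-catenin destruction complex, had 36, 48 and 45 reads in EV, 0, 0 and 1 in TAZ4SA, 2, 0 and 2 in YAP5SA, 30, 25 and 29 in TAZ-CAMTA1 and 16, 23 and 20 in YAP-TFE3. TFE3 gave 40, 43 and 43, EVsub 10, 8 and 10 and CAMTA1 4, 6 and 4. Confluent EV and TFE3 libraries were highest, the fusions intermediate, and the sub-confluent and full-length groups lowest. The ratio of EV to TAZ4SA was 108-fold with a 95% counting interval of 19.0 to 4295 (adjusted p = 6.1e-09), and that of EV to YAP5SA 26.7-fold with an interval of 10.2 to 99.4 (8.22e-09). Axin2 also fell with YAP-TFE3 (-1.25 ± 0.29, adjusted p = 0.00453) and in EVsub (-2.32 ± 0.32, adjusted p = 4.15e-05). With TAZ-CAMTA1 the difference was -0.71 ± 0.28, adjusted p = 0.0787. Axin2 was low throughout, at 0.351 RPKM in EV, where Axin1 stood at 26.1.

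Lef1 (ENSMUSG00000027985, chr3:131110471-131224356, plus strand), a DNA-binding partner of β-catenin, measured 5.95, 4.15 and 5.04 CPM in EV, 1.54, 1.35 and 1.05 in TAZ4SA, 1.23, 1.13 and 1.08 in YAP5SA, 1.70, 1.02 and 1.32 in TAZ-CAMTA1 and 1.20, 2.11 and 2.89 in YAP-TFE3. TFE3 had 6.12, 8.06 and 7.36, EVsub 5.60, 5.84 and 4.61 and CAMTA1 5.77, 5.62 and 3.80 CPM. Every library with a TAZ or YAP protein lay below every library without one. Lef1 fell with TAZ4SA (-1.95 ± 0.27, adjusted p = 3.02e-06), YAP5SA (-2.13 ± 0.28, adjusted p = 4.63e-07), TAZ-CAMTA1 (-1.90 ± 0.26, adjusted p = 1.39e-05) and YAP-TFE3 (-1.28 ± 0.25, adjusted p = 0.000895), and it was the 1 member called lower with TAZ-CAMTA1. The fusions were not told apart (-0.62 ± 0.27, adjusted p = 0.15), nor was TAZ-CAMTA1 from TAZ4SA (0.05 ± 0.29, adjusted p = 0.896).

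Tcf7 (ENSMUSG00000000782, chr11:52252371-52283014, minus strand), encoding TCF1, was sparse, with 7, 12 and 6 reads in EV, 21, 5 and 13 in TAZ4SA, 2, 2 and 1 in YAP5SA, 10, 6 and 8 in TAZ-CAMTA1 and 6, 2 and 9 in YAP-TFE3. TFE3 gave 4, 4 and 3 reads, EVsub 3, 7 and 3 and CAMTA1 2, 3 and 2. It fell with YAP5SA, where EV stood 4.14-fold higher with a 95% counting interval of 1.56 to 13.8 (adjusted p = 0.00793). TAZ4SA exceeded YAP5SA by 7.72-fold, with an interval of 3.04 to 25.1 (adjusted p = 0.000628). Tcf7 passed the mean limit of 5 reads only through TAZ4SA, so its excess there is partly built into its membership. Tcf7l1, often a repressor in this family, fell with TAZ4SA (-1.497) and YAP5SA (-1.84). Tcf7l2 rose with TAZ-CAMTA1 (0.32 ± 0.10, adjusted p = 0.0293) and YAP-TFE3 (0.50 ± 0.10, adjusted p = 0.00142) and fell with TFE3 (-0.48 ± 0.10, adjusted p = 0.0103). The first of these calls was lost without EV replicate 1 (0.31, adjusted p = 0.0902), EV replicate 2 (0.26, adjusted p = 0.108), TAZ-CAMTA1 replicate 1 (0.32, adjusted p = 0.0587), TAZ-CAMTA1 replicate 2 (0.32, adjusted p = 0.0751), TAZ-CAMTA1 replicate 3 (0.32, adjusted p = 0.0824) or YAP-TFE3 replicate 1 (0.29, adjusted p = 0.0505), and the last without EV replicate 3 (-0.42, adjusted p = 0.0744), TFE3 replicate 2 (-0.46, adjusted p = 0.0661) or TFE3 replicate 3 (-0.43, adjusted p = 0.0868). Axin1 rose with TAZ4SA (0.35) and YAP5SA (0.76).

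**Figure D5:**
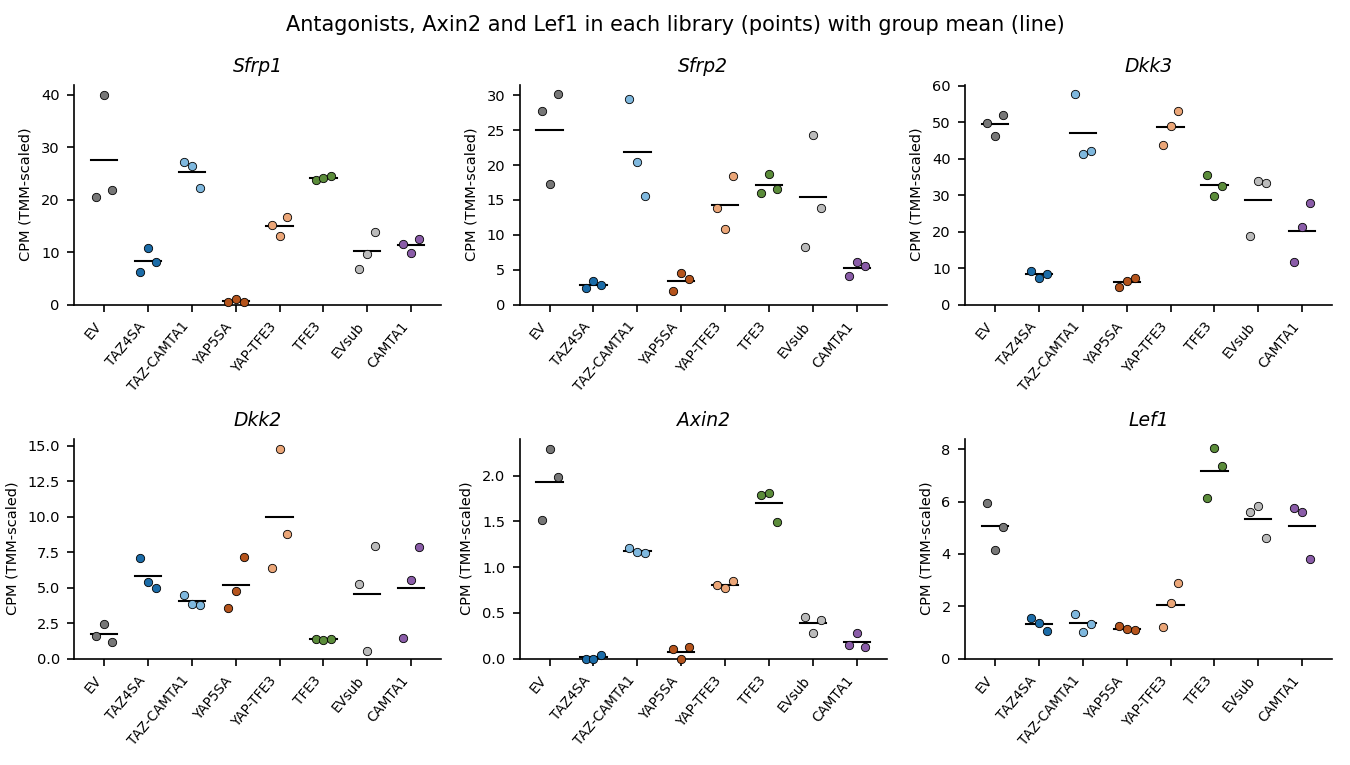
CPM (TMM-scaled) of 4 secreted antagonists, Axin2 and Lef1 in every library (points, 3 per group) with the group mean (line). Sfrp1, Sfrp2, Dkk3, Axin2 and Lef1 lie lower in TAZ4SA and YAP5SA than in EV, Dkk2 lies higher, and Lef1 is also low in both fusion groups, at 1.02 to 2.89 CPM.

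Tested directly, the fusion proteins differed from their full-length counterparts at most members. TAZ-CAMTA1 against TAZ4SA gave 24 calls, 16 higher and 8 lower, beside 54.7%, 26.6% and 28.1% of all genes. YAP-TFE3 against YAP5SA gave 28 calls, 20 higher and 8 lower, beside 70.9%, 36.4% and 34.5%. The median log2 difference was 0.43 and 0.98, with 0.00 and 0.05 over all genes. By role, the ligands gave 1 higher and 5 lower call for TAZ-CAMTA1 and 3 higher and 4 lower for YAP-TFE3. Receptors gave 8 higher and 2 lower, and 7 higher and 2 lower. Antagonists gave 3 higher and 0 lower in both, namely Sfrp1, Sfrp2 and Dkk3, with differences of 1.61, 2.94 and 2.48 for TAZ-CAMTA1 and 4.42, 2.08 and 2.96 for YAP-TFE3. Lgr6 was at least 10.95-fold higher with YAP-TFE3 than with YAP5SA. Axin2 was higher with each fusion than with its full-length protein, 66.3-fold with a 95% counting interval of 11.6 to 2650 for TAZ-CAMTA1 and 11.2-fold with an interval of 4.15 to 42.4 for YAP-TFE3. Of the calls for TAZ-CAMTA1, that of Fzd5 was lost without TAZ-CAMTA1 replicate 1 (0.30, adjusted p = 0.0924), and those of Fzd8 and Wnt10b on leaving out any 1 of 10 libraries each (adjusted p up to 0.147 and 0.149). Of those for YAP-TFE3, that of Lef1 (0.86) was lost without YAP-TFE3 replicate 3 (0.56, adjusted p = 0.102).

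Between the fusions 4 members were called, 2 higher and 2 lower in TAZ-CAMTA1, beside 11.6%, 5.32% and 6.32% of all genes. They were Wnt7a and Axin1 (0.38 ± 0.10, adjusted p = 0.012), higher in TAZ-CAMTA1, and Fzd1 and Lgr6, lower. The Axin1 call was lost without TAZ-CAMTA1 replicate 2 (0.33, adjusted p = 0.0806). TAZ4SA and YAP5SA differed at 18 members, 11 higher and 7 lower in TAZ4SA, beside 42.4%, 22.8% and 19.6%. Sfrp1 (3.56), Tcf7 and Fzd4 (2.25) led those higher in TAZ4SA, and Wnt7b (-3.09) and Wnt7a (-2.90) those lower. Tcf7 became a member only through its reads in TAZ4SA, and Wnt7a and Wnt7b only through theirs in TAZ4SA and YAP5SA. Of these 18 calls, that of Fzd5 (-0.35) was lost on leaving out any 1 of 13 libraries (adjusted p = 0.0501 to 0.258), and that of Tcf7l2 (0.30) was lost without TAZ4SA replicate 3 (0.25, adjusted p = 0.0974) or YAP5SA replicate 2 (0.28, adjusted p = 0.0648).

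Between the empty vectors, Axin2, Sfrp1, Dkk3, Fzd2, Fzd5 and Ror1 were lower and Fzd6 higher at sub-confluence. The Fzd6 call was lost without EV replicate 1 (0.47, adjusted p = 0.112), EVsub replicate 1 (0.59, adjusted p = 0.0635) or EVsub replicate 3 (0.56, adjusted p = 0.0531). No ligand was called in this comparison, nor in TFE3 against EV or CAMTA1 against EVsub.

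The wider pathway was described with a list of 70 other genes, 56 of which passed the count limit. With TAZ4SA 14 rose and 22 fell, beside 31.1% and 26.4% of all genes, and with YAP5SA 17 rose and 26 fell, beside 36.3% and 34.9%. TAZ-CAMTA1 gave 8 higher and 12 lower (all genes, 12.5% and 8.98%) and YAP-TFE3 9 and 6 (10.6% and 4.74%). TFE3 gave 1 and 3 (2.36% and 1.02%), CAMTA1 0 and 2 (1.29% and 0.891%) and EVsub 9 and 11 (12.5% and 9.59%). The median over the 56 was -0.08 with TAZ4SA and -0.26 with YAP5SA, where that of all genes was 0.05 and 0.01. Ctnnb1, encoding β-catenin, fell with TAZ4SA (-1.73 ± 0.11, adjusted p = 3.74e-11), YAP5SA (-1.88 ± 0.11, adjusted p = 2.95e-12), TAZ-CAMTA1 (-0.81 ± 0.10, adjusted p = 5.95e-06) and YAP-TFE3 (-0.44 ± 0.10, adjusted p = 0.0042), and also in EVsub (-0.49 ± 0.10, adjusted p = 0.00168). Dvl1, a relay from Frizzled, rose with all 4 TAZ and YAP proteins, by 1.41, 1.66, 0.38 and 0.44 in that order.

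The genes named from this list were chosen after their values were seen. Of the 3 secretion genes tested, Wls, which carries Wnts to the cell surface, fell with TAZ4SA (-0.52), YAP5SA (-0.30) and TAZ-CAMTA1 (-0.36). Trabd2b, a protease that inactivates Wnts, fell by 5.28 with TAZ4SA and 6.38 with YAP5SA. In EVsub 2 of the 3 secretion genes were called lower, beside 9.59% of all genes. With CAMTA1 against EVsub 1 was, beside 0.891%. Mean CPM of Wls was 656 in EV and 432 in EVsub, and that of Trabd2b 95.5 in EV, 60.6 in EVsub and 21.7 in CAMTA1. In the planar polarity list 8 of 13 genes fell with TAZ4SA and 10 with YAP5SA, beside 26.4% and 34.9% of all genes, among them Vangl2 (-0.91 and -1.41). In the same list 0 rose with either, beside 31.1% and 36.3%. There TAZ-CAMTA1 also gave 0 higher and 5 lower (all genes, 12.5% and 8.98%), and YAP-TFE3 2 and 2 (10.6% and 4.74%). EVsub gave 2 higher and 3 lower (12.5% and 9.59%). Of the 6 other target genes tested, 3 rose and 1 fell with TAZ4SA, beside 31.1% and 26.4% of all genes. With YAP5SA 4 rose and 1 fell, beside 36.3% and 34.9%. TAZ-CAMTA1 gave 3 higher and 0 lower (all genes, 12.5% and 8.98%) and YAP-TFE3 1 and 0 (10.6% and 4.74%). Among the 6, Ccnd1, encoding cyclin D1, rose with TAZ-CAMTA1 (2.79 ± 0.37, adjusted p = 9.29e-06) and in EVsub (1.19 ± 0.35, adjusted p = 0.0192). Myc rose with TAZ4SA (2.03), YAP5SA (1.43), TAZ-CAMTA1 (0.68) and in EVsub (0.99) and fell with TFE3 (-0.66).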

How the data were processed

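RNA-seq of polyA RNA from 8 groups of NIH 3T3 cells (3 libraries each) was analysed from the gene counts that the authors deposited, 1 file per library. Per the methods and labels, 75 bp paired-end stranded reads were demultiplexed with bcl2fastq and aligned to mm10 with Hisat2 in bcbio-nextgen 1.0.8 with Ensembl release 97. The methods also describe Salmon quantification summed to genes with tximport. Whether the deposited whole-number counts came from that or from the alignments, and the strand setting, are not given in the sources used here. Groups came from sample titles. For YAP-TFE3 replicate 3, whose description repeats the name of replicate 2, the title was used.

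Symbols came from GENCODE M21, which matched 37693 of 39017 identifiers. The test covered genes averaging 5 or more counts and was run in edgeR 4.0.16 (R 4.3.3), using TMM scaling and the quasi-likelihood test in 1 fit of all 24 libraries, and p-values were adjusted by Benjamini-Hochberg over all 14361 genes, with 0.05 as the threshold. CPM and RPKM used TMM-scaled library sizes and the merged exon length. Libraries held 16471181 to 30132586 counts (median 22298975). Counting intervals are exact 95% intervals for summed counts, a floor was 3 counts per library, and both cover counting error only. Per the methods, the triplicates were separate transductions. The edgeR test of TAZ4SA against EV was tried on simulated counts in which far fewer genes changed than were called in the data. The floors, counting intervals and promoter search were not tried in this way.

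Values in every library are given for members called in at least 1 comparison with an empty vector whose group means span at least 4-fold, and for feedback target genes over the limit. Members, lists and this rule were chosen with earlier results of these data known. Alternatives were DESeq2 1.42.0, its scaling within edgeR, no filter, the replicate number as a block, fits of only the groups compared, and leaving out each library. Replicate numbers did not pair the libraries, since in no comparison did all 3 same-numbered pairs correlate above 0.1 in their deviations from the group means. Promoter sequences were read with Python 3.11.15.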

Additional observations from a re-analysis of the deposited data

Results flagged for a closer look

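At 3 genes a fusion protein and its full-length counterpart were called in opposite directions against the empty vector, and the direct contrast of the pair also passed the edgeR test. Lgr4 was higher by 1.16 (log2) in TAZ-CAMTA1 than in TAZ4SA and by 2.11 in YAP-TFE3 than in YAP5SA. Fzd4 was higher by 3.58 and Fzd7 by 1.52 in YAP-TFE3 than in YAP5SA. Groups of 3 libraries were not tested for outlying libraries.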

How the results depend on the processing

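No called difference of a member changed sign under any alternative run. Uncalled differences near 0 did, such as that of Fzd4 in TAZ4SA against EV (-0.06 to 0.17) and of Dkk2 in CAMTA1 against EVsub (-0.40 to 0.82). The wider pathway genes were fitted in the main setting only. Scaling by the DESeq2 method kept every count of called members within 1.5 times its main value. DESeq2 called 5 members in TFE3 against EV, in place of 3, and 6 in TAZ-CAMTA1 against YAP-TFE3, in place of 4. Without a filter, CAMTA1 against EVsub gave 3 and TAZ-CAMTA1 against YAP-TFE3 gave 6. Fitting only the groups compared gave 6 for TFE3, 0 for CAMTA1 against EVsub, 4 for EVsub against EV and 7 for TAZ-CAMTA1 against YAP-TFE3. The cause was not tested.

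Leaving out 1 library gave 22 to 23 calls for TAZ4SA, 26 to 29 for YAP5SA, 6 to 10 for TAZ-CAMTA1, 9 to 13 for YAP-TFE3 and 2 to 4 for TFE3 against EV. It gave 0 to 2 for CAMTA1 against EVsub (0 without CAMTA1 replicate 1), 3 to 8 for EVsub against EV (3 without EVsub replicate 1), 21 to 25 for TAZ-CAMTA1 against TAZ4SA and 27 to 29 for YAP-TFE3 against YAP5SA. TAZ-CAMTA1 against YAP-TFE3 gave 2 to 6 (2 without TAZ-CAMTA1 replicate 2) and TAZ4SA against YAP5SA 16 to 19.

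With the replicate block, calls numbered 22 for TAZ4SA, 28 for YAP5SA, 9 for TAZ-CAMTA1, 12 for YAP-TFE3, 3 for TFE3, 2 for CAMTA1 and 5 for EVsub. Depth limits the sparse members: Wnt7a, Wnt7b, Wnt11, Axin2, Lgr6 and Tcf7 had groups with 0 to 3 reads per library, where folds are bounds or carry wide intervals.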
